A study of Homo sapiens with 28 samples.

Results

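The replication-dependent histone genes lie in a few dense clusters, and the values here describe the chromatin of those clusters through the cell cycle of human embryonic stem cells. Members were chosen by position: every peak of the 16 ChIP-seq lists that overlapped 1 of 5 hg19 intervals. HIST1 was read as chr6:26017000-26290000 (the first block), chr6:27090000-27120000 (the second block) and chr6:27770000-27865000 (the third block), HIST2 as chr1:149780000-149865000 and HIST3 as chr1:228612000-228647000. Of 317841 peaks in all lists, 717 were members: 279 of H3K4me3, 387 of H3K27ac, 45 of H3K27me3 and 6 of H3K4me1. The clusters themselves were picked with results of these lists known, so the heights, counts and widths below are descriptions and carry no test.

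The cells were human embryonic stem cells carrying the Fucci reporters, fluorescent proteins that report cell cycle position, and all were kept without serum or feeder cells in a defined medium with Heregulin b1, Activin a, LongR3 IGF-1 and FGF2. Sorting gave 4 fractions: DN for early G1, KO2 for late G1, AzL for S phase and AzH for G2/M, with no other treatment or genotype. Of the 28 samples, 16 were ChIP libraries for the 4 marks, with 1 library per mark and phase. No value therefore has a replicate error, and differences between phases are differences between single libraries. The lists give no read numbers, so the depth is unknown. H3K4me3 lists held 24757 peaks for early G1, 25653 for late G1, 25977 for S and 28735 for G2/M, and H3K27ac lists 30168, 32521, 10268 and 19525. The H3K27ac list of S phase was thus the shortest of that mark, and counts of H3K27ac peaks in S are to be read beside that length.

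Replication-dependent histone genes supply the histones that package newly made DNA. They are transcribed chiefly in S phase, from nuclear bodies that gather around the clusters, under the coactivator NPAT, a substrate of cyclin E and CDK2, which become active late in G1. Their messages lack introns and a poly(A) tail and end in a stem-loop. In pluripotent cells G1 is short. H3K4me3 marks active and poised promoters, H3K27ac active promoters and enhancers, H3K4me1 mostly enhancers, and H3K27me3 is laid down by Polycomb repressive complex 2 over silent genes.

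Gene order, taken from RefSeq (GRCh38.p14, used for names and order alone), gave 67 coding histone genes in the 5 runs read as the intervals. Left out were a chromosome 6 run with 2 coding genes, H2AC1 and H2BC1, and the lone pseudogene H2AC3P. The first chromosome 6 run, from H1-1 to H4C8, held 32 of them: 5 for the linker histone H1 and, for the core histones, 4 for H2A, 8 for H2B, 7 for H3 and 8 for H4. HFE, an iron-regulatory gene and no histone gene, sits inside that run between H1-2 and H4C3. The second run (H2BC11 to H2AC12) held 5 coding genes and the third (H2BC13 to H2BC17) 16. On chromosome 1, the run of HIST2 (H2BC18 to H2AC21) held 11 and that of HIST3 held 3, namely H3-4, which codes for a testis histone H3, H2AC25 and H2BC26. No hg19 annotation was used, so peaks are named by coordinates and were not matched to single genes, exons or introns.

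The promoters of these genes differ by class. They were not placed on the H3K4me3 regions described below. To show the class differences, the 250 bases before the start site of 1 gene of each class are given below from RefSeq (GRCh38.p14), 5′ to 3′ on the gene's strand. Capitals mark the octamer ATTTGCAT, the CCAAT box CCAAT and the TATA box TATAAA, each on either strand. H1-1 is at chr6:26017788-26018037 on the minus strand, H2AC4 at chr6:26033619-26033868 on the minus strand, H2BC3 at chr6:26043714-26043963 on the minus strand, H3C1 at chr6:26020201-26020450 on the plus strand and H4C2 at chr6:26027284-26027533 on the minus strand.
H1-1: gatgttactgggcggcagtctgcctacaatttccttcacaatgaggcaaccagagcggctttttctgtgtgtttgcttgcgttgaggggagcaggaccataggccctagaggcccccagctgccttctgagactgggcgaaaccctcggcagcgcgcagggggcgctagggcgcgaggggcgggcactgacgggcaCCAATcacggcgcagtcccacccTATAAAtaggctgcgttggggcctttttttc
H2AC4: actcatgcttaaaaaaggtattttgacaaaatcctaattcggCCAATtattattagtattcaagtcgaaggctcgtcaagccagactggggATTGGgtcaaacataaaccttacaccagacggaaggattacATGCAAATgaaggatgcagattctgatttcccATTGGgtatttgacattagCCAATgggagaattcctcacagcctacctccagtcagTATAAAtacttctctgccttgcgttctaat
H2BC3: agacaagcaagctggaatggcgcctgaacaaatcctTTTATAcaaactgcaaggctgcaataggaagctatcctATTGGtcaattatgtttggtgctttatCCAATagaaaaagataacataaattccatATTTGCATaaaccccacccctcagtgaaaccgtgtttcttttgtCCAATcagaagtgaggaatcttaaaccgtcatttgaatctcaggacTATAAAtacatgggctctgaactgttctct
H3C1: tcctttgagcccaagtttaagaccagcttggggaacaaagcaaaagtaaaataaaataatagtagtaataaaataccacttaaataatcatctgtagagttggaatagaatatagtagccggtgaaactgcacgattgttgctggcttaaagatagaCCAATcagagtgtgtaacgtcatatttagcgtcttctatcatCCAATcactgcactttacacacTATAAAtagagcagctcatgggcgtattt
H4C2: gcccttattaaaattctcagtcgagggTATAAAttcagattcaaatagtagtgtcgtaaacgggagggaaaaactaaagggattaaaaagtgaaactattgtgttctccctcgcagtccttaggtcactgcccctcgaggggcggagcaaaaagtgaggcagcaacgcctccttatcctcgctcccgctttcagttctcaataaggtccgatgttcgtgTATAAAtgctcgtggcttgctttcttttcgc

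The octamer is the letters bound by POU factors such as OCT1, a known activator of H2B genes. Promoter windows of 300 bases (to 50 bases past the start) were found for 62 of the 67 genes. The octamer was in 24 of the 62 (38.7%), in 13 of 17 H2B, 10 of 15 H2A and 1 of 12 H3 windows and in none of the 6 H1 and 12 H4 windows. Over all 35116 promoter windows of the table it was in 1.77%. CCAAT was in 53 of 62 (85.5%), including every H1, H2A, H2B and H3 window but only 3 of 12 for H4, against 34.6% of all windows. TATAAA was in 40 of 62 (64.5%), against 11.5% of all windows, and each class had windows with and without it. A match is a run of letters and not a measured binding site, and a window without a match says only that these letters are not there.

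A few promoters are close copies of each other. The windows of H4C14 and H4C15, both in HIST2, were equal at 300 of 300 bases, those of H4C11 and H4C12 at 295 and those of H2AC13 and H2AC14 at 252. The median over the 388 pairs within a class was 28.3% of bases equal. The treatment of reads that fit more than 1 place was not given in the sources used here, so heights at such copies are uncertain.

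H3K4me3 was dense in the clusters in every phase, in few broad peaks in early G1 and in more, narrower peaks in the other 3 phases. The clusters held 53 H3K4me3 peaks in early G1, 79 in late G1, 72 in S phase and 75 in G2/M, which was 0.214%, 0.308%, 0.277% and 0.261% of the lists. Early G1 had the fewest peaks but the most covered length, 105.2 kb, against 72.5 kb in late G1, 97.8 kb in S phase and 85.3 kb in G2/M. Covered length was thus 20.2%, 14.0%, 18.9% and 16.4% of the intervals. The median width of a member peak was 1550 bp in early G1, 650 bp in late G1, 1075 bp in S phase and 850 bp in G2/M. All 4 medians were above those of their lists, 675, 500, 550 and 475 bp.

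**Figure D1:**
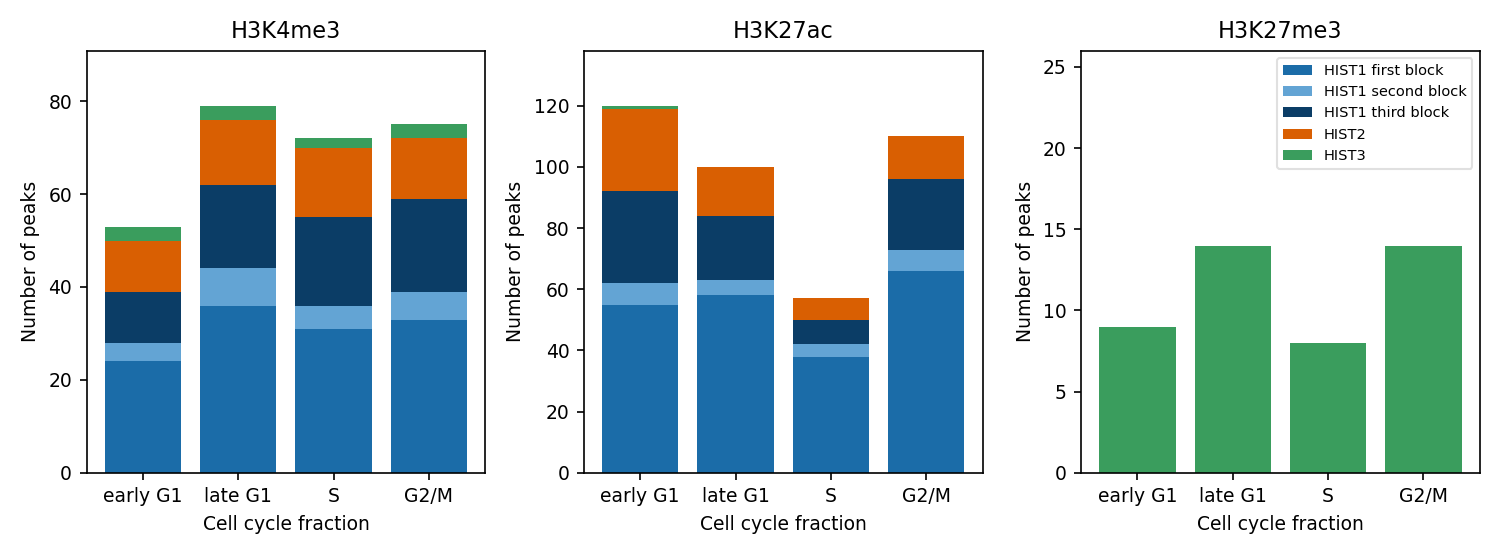
Number of peaks (vertical axis) in the 5 histone intervals for 3 marks (panels) in the 4 phases, 1 library each, stacked by interval. The H3K4me3 bars stand at 53 in early G1 and 79 in late G1, the H3K27ac bars at 120 in early G1 and 57 in S, and every H3K27me3 peak belongs to HIST3; H3K4me1 is not drawn.

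Heights are the authors' signal value at each peak, and relative height is that value divided by the median of all peaks of the same list on chromosomes 1 to 21. This step was needed because the early G1 list had a median of 63.8 and the others 36.8 (late G1), 37.1 (S phase) and 34.5 (G2/M). The median relative height of member peaks was 2.97 in early G1, 1.01 in late G1, 1.57 in S phase and 1.73 in G2/M. The tallest member stood at 7.79, 5.85, 7.07 and 9.05. In early G1, 40 of the 53 members were above their list's median, against 41 of 79 in late G1, 46 of 72 in S phase and 52 of 75 in G2/M. Against the median of its list, the median cluster peak was thus tall in early G1 and near the middle in late G1. The level depends on the reference: set against regions listed in all phases the medians were 1.42, 0.570, 0.759 and 0.790, so that in S and G2/M they were below 1. Among the upper part of each list by score they were 1.37 in early G1 and 0.980 in G2/M, and among peaks of at least 500 bp 1.61 and 1.01. Late G1 was the lowest phase against either reference.

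To follow the same places through the cycle, H3K4me3 peaks of the 4 phases were merged wherever they overlapped by at least 1 bp. The clusters gave 67 merged regions, of which 39 were listed in all 4 phases, 5 in 3 phases, 2 in 2 and 21 in 1. The first HIST1 block held 19 of the 39 constant regions, the second 4, the third 7, HIST2 7 and HIST3 2. They were 575 to 6350 bp wide, with a median of 2300 bp. By contrast the 21 regions of a lone phase were at most 275 bp wide, and 11 of them belonged to S (8 in HIST2), 5 to early G1, 4 to G2/M and 1 to late G1. Most lay at the flanks of a constant region: 9 of the 11 of S were within 1 kb of one. The like share for the whole series was not computed. Across the whole series, 15661 of 32799 merged regions (47.7%) were listed in all 4 phases, against 58.2% in the clusters. Regions of 1 phase made up a like share of both, 31.3% in the clusters and 34.3% in the series, with median widths of 125 and 150 bp. Of the 11250 such regions of the series, 2898 belonged to S, 3046 to early G1, 3586 to G2/M and 1720 to late G1.

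The 5 of 67 regions missing from 1 phase only were low, at most 1.37 times their list's median. In the whole series 2744 of 32799 merged regions were missing from 1 phase only. Of these, 1028 were missing from early G1, 895 from late G1, 514 from S and 307 from G2/M. The region chr6:26087551-26088100 had heights of 34.5, 18.4 and 18.6 in early G1, S and G2/M and no late G1 peak, and chr6:27839401-27840100 had 87.5, 35.0 and 24.6 in those phases and none in late G1 either. In S, chr6:26104151-26104675 was not listed, with 29.4, 18.6 and 17.5 elsewhere. Early G1 lacked chr6:27794351-27794550 (23.8, 17.2 and 15.6 in late G1, S and G2/M) and chr6:27795226-27795600 (19.2, 18.9 and 22.3).

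The tallest regions of the first HIST1 block stood well above the list median in each phase. Region chr6:26123276-26127325, 4050 bp wide, had relative heights of 7.79 in early G1, 4.67 in late G1, 6.90 in S phase and 6.46 in G2/M. The widest of the block, chr6:26195476-26200875 with 5400 bp, had 7.03, 3.12, 4.48 and 4.17. Region chr6:26156351-26160200 had 6.34, 3.87, 5.19 and 3.99. All 3 were highest in early G1 and lowest in late G1.

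In the second and the third block the order of phases was mostly the same, with 1 exception. Region chr6:27857576-27863700 of the third block spanned 6125 bp and had 7.25, 3.08, 6.02 and 5.29. Its neighbours by height, chr6:27791701-27793575 and chr6:27804601-27807650, had 5.39, 3.20, 3.92, 4.21 and 5.13, 2.07, 3.05, 3.09. The exception, chr6:27099001-27101975 in the second block, had 5.03 in early G1, 5.85 in late G1, 3.85 in S phase and 4.83 in G2/M and was the only constant region whose late G1 value was above its early G1 value. The other 2 tallest regions of that block dipped in late G1, chr6:27106876-27109175 with 3.92, 1.24, 2.43 and 1.97 and chr6:27112926-27114725 with 4.31, 2.55, 3.33 and 3.42.

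HIST2 carried the widest H3K4me3 region of the clusters. Region chr1:149810751-149817100 was 6350 bp wide and had 7.33, 5.40, 7.07 and 5.78. Region chr1:149820376-149826100 had 6.42, 4.11, 6.52 and 6.18, so that early G1, S and G2/M differed little there, and chr1:149856426-149860675 had 5.62, 3.63, 5.17 and 3.86. In each phase 5 of the 7 constant HIST2 regions were wider than regions of like height, and their median covered length was 4125, 3550, 4425 and 3600 bp.

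**Figure D2:**
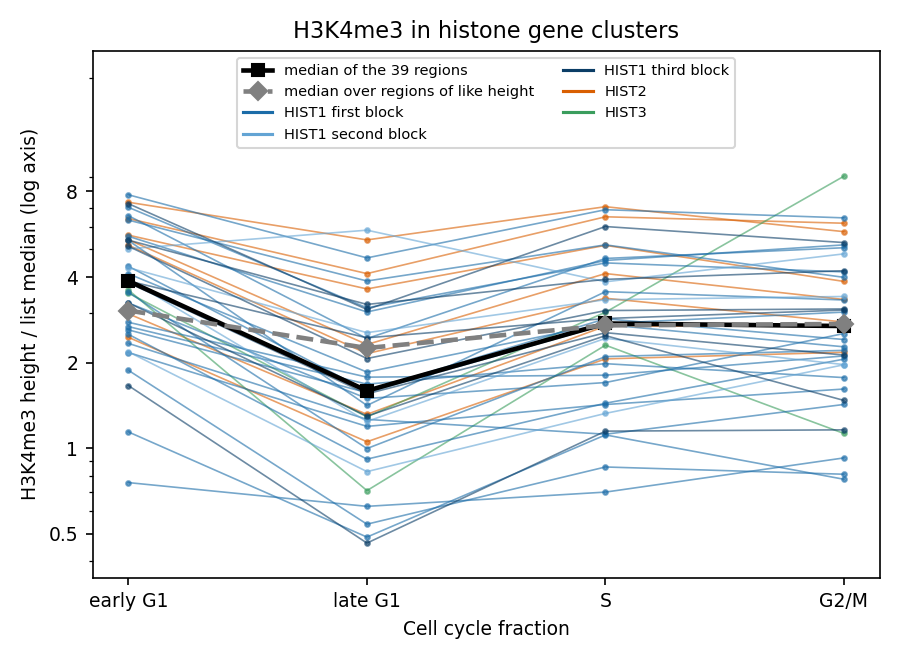
Relative H3K4me3 height (height over the list's median, log axis) of the 39 constant regions in the 4 phases, 1 thin line per region, coloured by interval. The black line is their median and the dashed grey line the median over regions of like height. The black line falls from 3.87 in early G1 to 1.59 in late G1 and stands at 2.75 in S phase and 2.69 in G2/M.

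Late G1 was the low point of H3K4me3 in the clusters. Over the 39 constant regions the median relative height was 3.87 in early G1, 1.59 in late G1, 2.75 in S phase and 2.69 in G2/M. The lowest phase was late G1 in 37 of the 39 and S in the other 2, and the highest was early G1 in 34. Beside each member, regions of like height were taken from 14625 regions outside the clusters, also listed in all 4 phases, whose mean log2 relative height was within 0.25 of the member's (1027 to 2322 regions a member). Their median was 3.05, 2.25, 2.70 and 2.73, a smaller dip. Of those 14625 regions, 42.9% were lowest in late G1 and 40.1% highest in early G1.

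From early to late G1 the median log2 change of a constant cluster region was -1.18, against -0.39 for regions of like height. The difference was -0.75, with quartiles of -1.002 and -0.32 over the 39 members. Of the 39 regions, 38 fell further than the median of their like-height regions, and the median member stood at percentile 9.03 among them. By interval the median difference from like height was -0.68 in the first HIST1 block, -0.72 in the second, -0.87 in the third, -0.75 in HIST2 and -1.53 in HIST3. The drop was therefore present in each of the 5 intervals. A drop of at least 2-fold was seen at 23 of the 40 member regions listed in both phases (57.5%), against 12.3% of all 15710 regions with both heights. No member rose 2-fold, against 10.3% of all regions. The median over the 40 was -1.17 and over all regions -0.19. The members nearest the 2-fold limit were chr6:26283976-26286700 (-1.15) and chr6:26188226-26189375 (-1.12) inside it and chr6:26026676-26027575 (-0.89) and chr6:26203926-26206700 (-0.88) outside it.

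The largest falls from early to late G1 were spread over 3 of the intervals. The greatest was in HIST3, at chr1:228643801-228645625, from a relative height of 3.60 to 0.71, a log2 change of -2.34. In the first HIST1 block chr6:26269651-26274450 went from 5.38 to 1.41 (-1.93), chr6:26031376-26034200 from 3.53 to 0.997 (-1.83) and chr6:26020651-26021650 from 1.88 to 0.54 (-1.80). In the third block chr6:27781701-27782575 went from 1.66 to 0.46 (-1.84). The deposited late G1 heights of these 5 regions were 26.1, 52.0, 36.7, 19.9 and 17.1, of which only the second was above the list median of 36.8. At the other end stood chr6:27099001-27101975 (0.22), chr6:26104151-26104675 (0.14), chr6:26021801-26022375 (-0.28), chr1:149810751-149817100 (-0.44) and chr1:149856426-149860675 (-0.63).

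H3K4me3 rose again from late G1 to S. The median log2 change was 0.65, against 0.25 for regions of like height, with a median difference of 0.39 (quartiles 0.13 and 0.72), and 33 of 39 regions rose more than their like-height regions. By the authors' score the difference was 0.65. A rise of at least 2-fold was seen at 7 of 41 member regions (17.1%), against 2.5% of all regions, and a fall of that size at none, against 1.31%. The largest rises were those of chr1:228643801-228645625 (1.70), chr6:26269651-26274450 (1.33), chr6:27781701-27782575 (1.31), chr1:228645676-228647575 (1.22) and chr6:26234026-26235150 (1.19). Of these, 3 were also among the largest falls of the step before. Both steps use the same late G1 height, so a low value there enters both lists and the overlap is no separate observation. Only chr6:27099001-27101975 (-0.60), chr6:27794351-27794550 (-0.48), chr6:26026676-26027575 (-0.17) and chr6:27795226-27795600 (-0.03) were lower in S than in late G1.

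Little moved between S and G2/M. The median change was 0.00, against 0.04 for regions of like height, and the median difference of -0.09 had quartiles of -0.28 and 0.13 and was 0.021 without HIST2. Of 43 member regions 1 was at least 2-fold lower, against 0.872% of all regions, and 1 at least 2-fold higher, against 6.09%. Both were in HIST3. The lower one was chr1:228643801-228645625 (-1.03), and chr6:27832976-27835450 followed with -0.76. The higher one was its neighbour chr1:228645676-228647575 (1.59), and the next, chr6:26188226-26189375, rose by 0.57. In HIST2 the median difference from like height was -0.27, with 6 of 7 regions below.

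From G2/M back to early G1 the cluster regions were again higher. The median log2 change was 0.45, against 0.09 for regions of like height, the median difference was 0.45 (quartiles 0.17 and 0.64) and 35 of 39 regions were above. It was 0.30 by the authors' score and 0.25 against regions of like height with H3K27ac in early G1, with 30 of 39 above in both cases. Rises of at least 2-fold were seen at 3 of 42 member regions (7.14%), against 4.41% of all regions. They were chr1:228643801-228645625 (1.68), chr6:26020651-26021650 (1.21) and chr6:27832976-27835450 (1.14). A fall of that size was seen at chr1:228645676-228647575 alone (-1.37), against 14.7% of all regions.

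**Figure D3:**
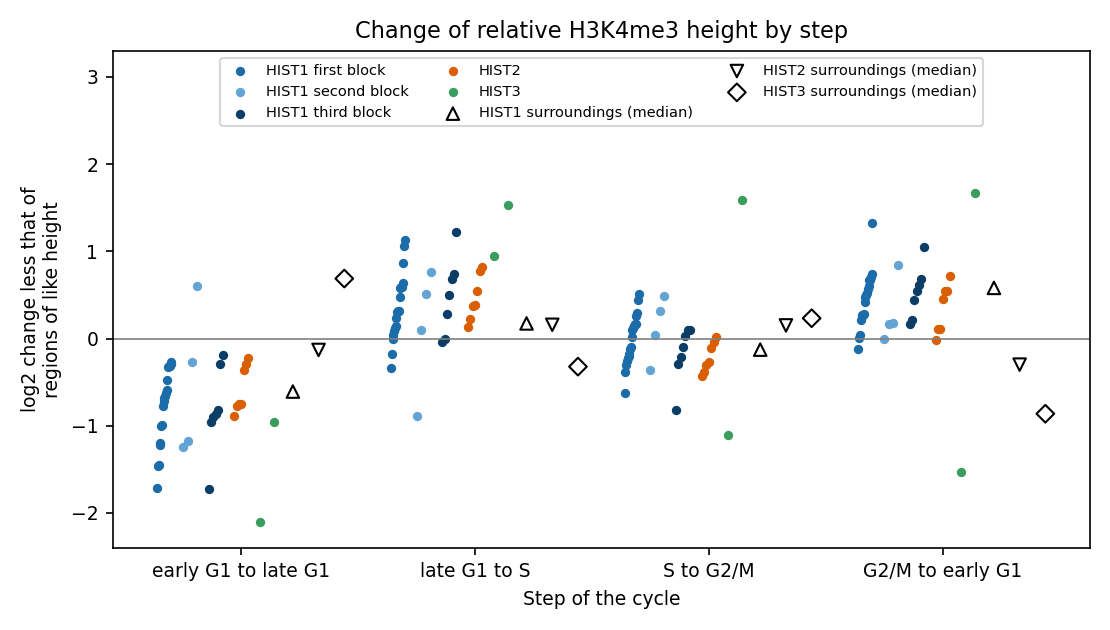
Log2 change of relative H3K4me3 height at each step of the cycle, less the median of regions of like height (vertical axis), 1 filled point per constant region by interval; open symbols are medians of constant regions within 500 kb of HIST1, HIST2 and HIST3. Points lie below 0 for 38 of 39 regions from early to late G1 and above 0 for 33 of 39 from late G1 to S and 35 of 39 from G2/M to early G1.

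The late G1 list also broke the constant regions into more pieces. A region held 1.10 peaks on average in early G1, 1.92 in late G1, 1.41 in S phase and 1.69 in G2/M, and regions of like height 1.18, 1.34, 1.24 and 1.34. More than 1 peak was listed in 3, 22, 13 and 19 of the 39 regions, with up to 5 pieces in late G1 and in S. The covered length per region had a median of 2225, 1450, 1800 and 1700 bp, beside 1375, 1175, 1375 and 1187.5 bp at like height. Members covered more than the like-height median in 32, 24, 31 and 30 of 39 cases. Single peaks were only slightly wider than peaks of like height in their own list, by a median of 1.17, 1.07, 1.07 and 1.13 times. The comparisons per region and per peak use unlike sets. The first takes the 39 constant regions, matched on mean height over the phases. The second takes all member peaks, small ones included, matched on height in their own list. The difference between them is therefore not shown to be one of regions against peaks.

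The surroundings of the clusters were read in the same way. Constant regions within 500 kb of the intervals, but outside them, were set beside regions of like height, a comparison chosen after the data were seen. Around HIST1, 77 such regions had a median difference from like height of -0.61 from early to late G1, with 66 below, and 51 of them (66.2%) were lowest in late G1. The rise from late G1 to S was 0.17 above like height there and the change from G2/M to early G1 0.58 above. A fall of at least 2-fold from early to late G1 was seen at 27 of the 77 (35.1%). A drop of nearly the size of that in HIST1 was thus also present outside it. Around HIST2, 22 regions differed from like height by -0.13, 0.16 and -0.30 at these 3 steps, and around HIST3, 21 regions by 0.69, -0.32 and -0.86, while the early to late G1 values inside these clusters were -0.75 and -1.53.

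H3K27ac was frequent in the clusters and lay mostly on H3K4me3 regions. The clusters held 120 H3K27ac peaks in early G1, 100 in late G1, 57 in S phase and 110 in G2/M, or 0.398%, 0.307%, 0.555% and 0.563% of the lists. They covered 66.9, 36.4, 14.3 and 40.1 kb. Their median width was 462.5, 250, 200 and 262.5 bp (lists 250, 225, 175 and 200 bp), and their median relative height 1.22, 1.08, 0.9998 and 1.14. They were thus wider than their lists' medians in every phase but hardly taller. In the first HIST1 block there were 55, 58, 38 and 66 of them, in the second 7, 5, 4 and 7, in the third 30, 21, 8 and 23 and in HIST2 27, 16, 7 and 14. HIST3 had 1 H3K27ac peak, in early G1, and none in the other 3 phases.

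Most cluster H3K27ac peaks lay on H3K4me3. The share overlapping an H3K4me3 peak of the same phase was 83.3% in early G1, 71.0% in late G1, 73.7% in S phase and 70.0% in G2/M, against 40.5%, 21.6%, 18.3% and 20.9% of the whole lists. Counted from the other side, 43 of 53 cluster H3K4me3 peaks carried H3K27ac in early G1 (81.1%, exact Clopper-Pearson 95% interval 68.0 to 90.6). In late G1 it was 50 of 79 (63.3%, 51.7 to 73.9), in S 23 of 72 (31.9%, 21.4 to 44.0) and in G2/M 50 of 75 (66.7%, 54.8 to 77.1). H3K4me3 peaks of like height elsewhere in the same list carried H3K27ac in 51.6%, 18.7%, 6.30% and 12.9% of cases. Where like width was asked for as well, a choice made after the data were seen, the shares were 55.1%, 20.5%, 7.70% and 17.1%. The 4 cluster shares were above these values. Their intervals cover counting error alone, and peaks that are pieces of 1 region are not independent, so the intervals are no test of the difference. Of the bases under cluster H3K4me3, 54.0%, 30.1%, 10.9% and 30.3% were also under H3K27ac, against 18.2%, 6.90%, 1.43% and 4.14% at like height.

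The same held per region. Of the 39 constant regions, 37 carried H3K27ac in early G1, 30 in late G1, 21 in S phase and 32 in G2/M (94.9%, 76.9%, 53.8% and 82.1%). Regions of like height, not matched for width, did so in 52.3%, 36.4%, 9.69% and 20.5%. The surroundings of the clusters differed among themselves. Around HIST1, 24.7%, 13.0%, 2.60% and 7.79% of constant regions carried H3K27ac, below the 34.0%, 20.9%, 5.09% and 11.6% of regions of like height. Around HIST2 the shares were 63.6%, 54.5%, 22.7% and 36.4%, above the 47.9%, 36.1%, 11.9% and 22.3% at like height, as in the clusters. Around HIST3 they were 33.3%, 14.3%, 4.76% and 14.3%, below the 50.7%, 37.9%, 11.4% and 22.6% at like height.

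**Figure D4:**
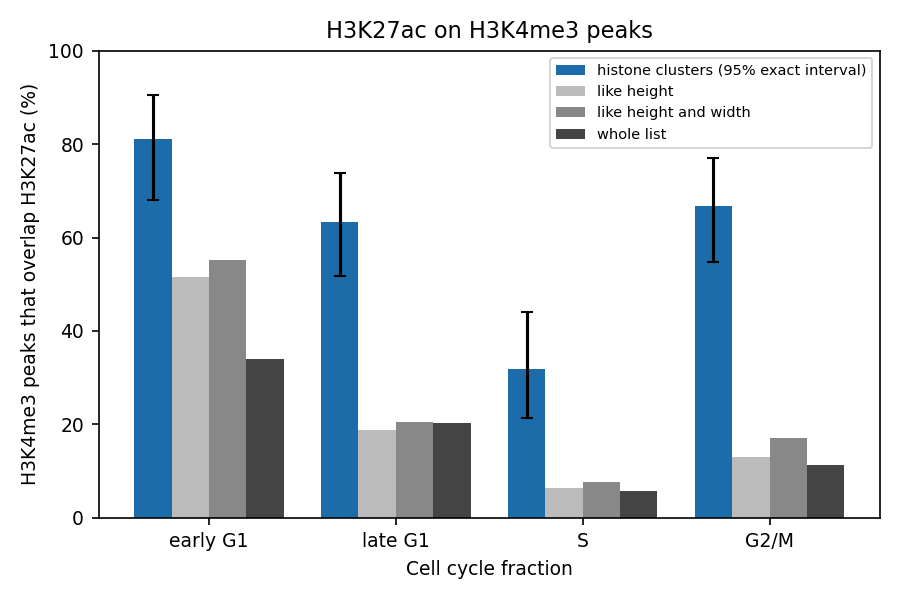
Share of H3K4me3 peaks (percent) that overlap an H3K27ac peak of the same phase, for cluster peaks with exact 95% binomial intervals, for peaks of like height and of like height and width outside the clusters, and for the whole list. Cluster peaks lie at 81.1%, 63.3%, 31.9% and 66.7% and peaks of like height at 51.6%, 18.7%, 6.30% and 12.9%.

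H3K27ac was found in all 4 phases at 21 of the 67 regions (31.3%), 20 of them constant (51.3% of the 39). Over the whole series it was so at 1373 of 32799 merged regions (4.19%) and at 1136 of the 15661 constant ones (7.25%). These shares were not matched for height or width. The median width of constant regions was 2300 bp in the clusters and 1275 bp in the series. Region chr6:26223626-26226450 had the tallest cluster H3K27ac peak in S and in G2/M, but not in early or late G1. Its tallest H3K27ac peak had relative heights of 2.53 in early G1, 2.50 in late G1, 2.60 in S phase and 3.82 in G2/M. Its S peak was at percentile 99.3 of that list and its G2/M peak at percentile 99.8, while the H3K4me3 of the same region was moderate (2.51, 0.92, 1.44 and 2.06). H3K27ac there was highest in G2/M and H3K4me3 in early G1. Of the other regions, chr6:26195476-26200875 had 2.73, 2.10, 1.61 and 1.86 for H3K27ac, chr6:26203926-26206700 2.50, 1.69, 1.52 and 2.27, and chr6:27804601-27807650 2.99, 2.21, 1.40 and 2.03. In these 3 the lowest value was in S. The tallest late G1 peak, chr1:149860126-149860650 in HIST2, had 2.59.

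The tallest H3K4me3 region of the first block was without H3K27ac in S. At chr6:26123276-26127325 the H3K27ac values were 1.83, 1.45 and 1.42 in early G1, late G1 and G2/M, with no S peak, although a small H3K4me3 satellite of early G1 beside it, chr6:26122951-26123075, overlapped H3K27ac in all 4 lists (1.21, 1.14, 0.90 and 0.94). The exceptional second-block region chr6:27099001-27101975 had 2.05, 1.17 and 1.01 and no S peak either. The S list was the shortest of this mark, with 10268 peaks, and the part of that in these absences was not tested.

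H3K27ac away from H3K4me3 was rarer in the clusters than in the whole lists. From early G1 to G2/M, 95%, 90%, 89.5% and 90% of cluster H3K27ac peaks were within 500 bp of same-phase H3K4me3. In the whole lists 45.081%, 26.838%, 23.481% and 26.996% were. Merged regions take H3K4me3 of any phase, and no whole-series share is given for them. Merged over the phases there were 142 H3K27ac regions in the clusters. Of these, 112 lay on a merged H3K4me3 region and 7 were more than 500 bp from one. Only 1 of those 7 was listed in all phases, chr6:26029276-26030200, with relative heights of 1.25, 2.05, 1.59 and 1.65 and a distance of 776 bp. It also overlapped H3K4me1 in 2 phases, at chr6:26029801-26029950 in S (0.94) and chr6:26029851-26030025 in G2/M (0.96).

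Few other H3K4me1 peaks lay in the clusters, and the lists of this mark were short. In all there were 0, 1, 1 and 4 peaks, from lists of 1878, 4017, 6280 and 6156. These were 0%, 0.0249%, 0.0159% and 0.0650% of the lists. The number was not set beside that of places of like size elsewhere, so it does not show a lack of the mark. The remaining 4 were chr6:27855576-27855850 in late G1 (1.37, percentile 97.1 of its list), chr6:27855451-27855650 in G2/M (1.18), chr6:26103351-26103475 in G2/M (0.96) and chr6:26185901-26186000 in G2/M (0.95). Of these 4, chr6:26103351-26103475 overlapped H3K27ac in late G1, S and G2/M (1.24, 1.08 and 1.37), and the others overlapped no H3K27ac peak. None of the 6 overlapped H3K4me3, and the late G1 peak of the third block overlapped the G2/M peak there. In the whole H3K4me1 lists, too, only 1.70%, 1.12%, 3.01% and 2.55% of peaks overlapped H3K4me3 of the same phase.

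H3K27me3 set HIST3 apart from the other clusters. All 45 H3K27me3 members were in HIST3, 9 in early G1, 14 in late G1, 8 in S phase and 14 in G2/M, and the 3 HIST1 blocks and HIST2 had none in any phase. They covered 8.48, 12.2, 3.35 and 8.55 kb, or 24.2%, 34.8%, 9.57% and 24.4% of that interval. The tallest peak was at much the same place in each list: chr1:228630026-228634975 in early G1 (4950 bp, relative height 3.17), chr1:228630626-228635400 in late G1 (4775 bp, 3.17), chr1:228632501-228633550 in S (1050 bp, 1.85) and chr1:228632551-228635000 in G2/M (2450 bp, 3.54). In S it was the narrowest and lowest, and the H3K27me3 list of S was also the shortest of the 4, with 19989 peaks against 23755 to 31682. Inside this domain only small H3K4me3 peaks were listed, chr1:228633926-228634125 in early G1 and chr1:228633676-228633750 in G2/M.

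Overlap of both marks was therefore uncommon. Of cluster H3K4me3 peaks, 2 of 53, 1 of 79, 1 of 72 and 2 of 75 overlapped H3K27me3 (3.77%, 1.27%, 1.39% and 2.67%), against 11.9%, 19.9%, 13.4% and 16.5% at like height. The exact 95% intervals of these shares reach up to 13.0%, 6.85%, 7.50% and 9.30% and cover counting error alone. Neighbouring peaks are not independent and every overlap was in HIST3, so the intervals are no test against like height. The 1 constant region with H3K27me3 was chr1:228645676-228647575, which had it in all 4 phases at relative heights of 1.11, 1.20, 1.64 and 1.04.

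The 2 constant H3K4me3 regions of HIST3 are neighbours and went opposite ways after S. Region chr1:228643801-228645625 had 3.60, 0.71, 2.30 and 1.13 and no H3K27me3 in any phase. Region chr1:228645676-228647575, which runs past the end of the interval, had 3.51, 1.29, 3.01 and 9.05. Its G2/M height of 312 was the highest relative height of any cluster peak and stood at percentile 98.0 of its list, while the authors' score for that peak was at percentile 88.0. In early G1 its height was 224, at percentile 80.9, and its score at percentile 74.6. Height and score were thus further apart for the G2/M peak, and no replicate is at hand for it.

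**Figure D5:**
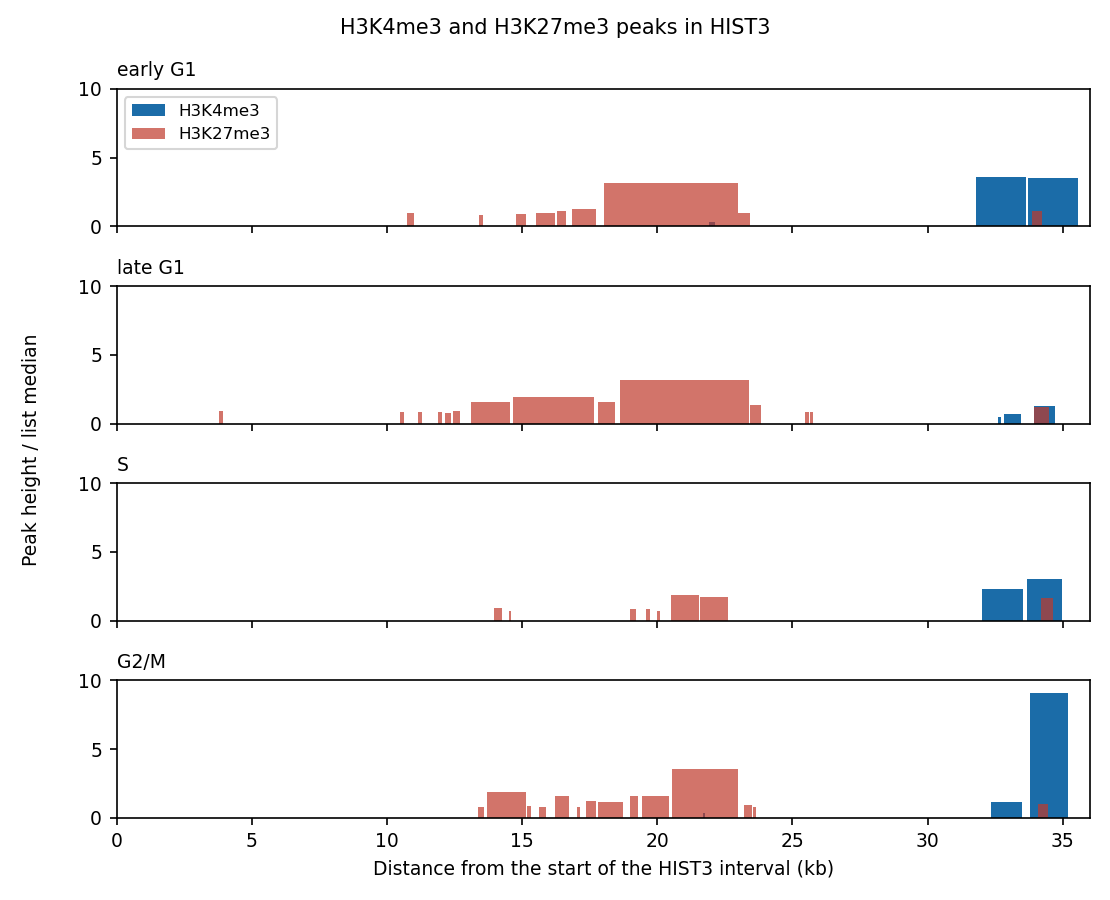
H3K4me3 (blue) and H3K27me3 (red) peaks of HIST3 in the 4 phases, by distance from the start of the interval (kb) and relative height (vertical axis), 1 bar per peak as wide as the peak. The H3K27me3 domain with heights up to 3.54 lies apart from the 2 constant H3K4me3 regions, and the last region reaches 9.05 in G2/M.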

How the data were processed

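Of the 28 samples, the 16 ChIP libraries were used, grouped by the labels with 1 library per mark and phase. The 4 inputs and the 8 4C libraries were not analysed here. Each deposited list gives peak positions, a signal column (the peak height) and a score column, which is negative and serves only in alternatives. Both are the authors' values, and the scaling of the signal, the peak caller, its settings and any use of inputs were not given in the sources used here. In the submitters' processing notes, Bowtie 0.12.7, hg19 and mm9 stand with no role given, and coordinates were read as hg19. All peaks lie on a 25 bp grid. A height of 0, found on the chromosomes coded 22 to 24 and at a few other peaks, was treated as missing, so comparisons of height use chromosomes 1 to 21.

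Peaks were members with at least 1 bp inside an interval. Merged H3K4me3 regions took the height of their tallest peak. Like height means within 0.25 (log2), over the mean of the 4 phases for regions and within a list for peaks. Shares carry exact Clopper-Pearson 95% intervals, which cover counting error only. The files give no replicates or read counts, so no p-value was computed.

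Members and lists were chosen with earlier results of these data known. Named regions are, per interval, up to 3 with the greatest mean relative height and the widest, the 5 highest and 5 lowest changes per step, those with H3K27me3 in at least 2 phases or H3K27ac in all 4, those missing from 1 phase only, and all H3K4me1 peaks; the text gives a part of them, and the tallest H3K27ac and H3K27me3 peaks were named after their values were seen. A listed protein sequence was not used here. RefSeq (GRCh38.p14) gave promoter sequences and gene order, and older HIST3 names were matched to H2AC25 and H2BC26. Alternatives were stricter lists by score or width, another reference for relative height, other bands of like height, score in place of height, each interval left out, and other limits of overlap. Python 3.11.15, numpy 2.4.6, pandas 2.3.3, scipy 1.17.1 and matplotlib 3.10.9 were used.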

Additional observations from a re-analysis of the deposited data

How the results depend on the processing

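Over 36 values and 100 alternative settings, no difference changed sign except that from S to G2/M, 65 stayed within 1.5 times (counts, widths and heights), 0.1 log2 (differences) or the 95% interval (shares), and 35 moved. In place of the list median, the median of regions listed in all phases was used, which takes only each region's tallest peak. Against it, the median relative H3K4me3 height of all member peaks was 1.42, 0.570, 0.759 and 0.790 from early G1 to G2/M. In the upper part of each list by score it was 1.37 in early G1 and 0.980 in G2/M, and among peaks of at least 500 bp 1.61 and 1.01. Score-filtered lists held 42 H3K4me3 peaks in late G1 (median width 1000 bp) and 45 in S, and 47 in each were at least 500 bp wide. They also held 5, 6, 3 and 7 H3K27me3 peaks, 59, 31 and 71 H3K27ac peaks in late G1, S and G2/M, and 0 and 1 H3K4me1 peaks in S phase and G2/M. With at least 50% of a peak covered, the H3K27ac share was 50.9%, 29.1%, 5.56% and 22.7%, and with score-filtered H3K27ac it was 44.3% in late G1 and 54.7% in G2/M. Less like height, the change from early to late G1 was -0.89 against regions of like height and width and -0.53 against those with H3K27ac in early G1, both added after the data were seen. From late G1 to S it was 0.65 by score and 0.51 without the first HIST1 block. From S to G2/M it was 0.021 without HIST2 and 0.0046 against regions of like height and width, and on the return to early G1 0.30 by score and 0.25 against regions with H3K27ac in early G1. The cause of these shifts was not tested, and fewer peaks are listed in the stricter lists by construction. No paired analysis was possible because there is 1 library per mark and phase. Depth is unknown, so a missing peak is not shown to be a missing mark.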
